A study of Mus musculus with 6 samples.

Results

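The genes described here encode 9 proteins of synaptic vesicles and of the machinery that releases them: Syn1, Syp, Vamp2, Snap25, Syt1, Cplx1, Stx1a, Sv2a and Sh3gl2. They were taken by name, as the probes annotated with 1 of these symbols, and they are 9 of the 16593 genes that the array measured. The study profiled total RNA of adult female C57Bl6 mice on 6 Illumina MouseRef-8 v2.0 arrays, after unilateral cutting of the sciatic nerve at mid-thigh. The injured arrays held sciatic nerve at day 1 and at day 5 after transection, with the proximal and distal stumps combined, the L4/5 dorsal root ganglia (DRG) on the side of the cut at day 5, and day 5 spinal cord. The title of the cord array marks it as ipsilateral, the side of the cut. The controls were a nerve and L4/5 DRG of the right side, which the labels call normal and the methods sham-operated, so they are called sham here. Each array carried RNA pooled from 6 animals and each condition had 1 array. The title of the day 5 nerve array ends with the code of day 1, while its source name gives day 5, and it was taken as day 5. The extraction protocol names nerves and DRG, and does not name the cord.

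A synaptic vesicle is a small membrane sac, loaded with transmitter, that waits in the nerve terminal. Calcium entering the terminal is sensed by synaptotagmin, and the vesicle fuses with the plasma membrane when VAMP2 on the vesicle zips together with syntaxin-1A and SNAP-25 on the target membrane. The proteins are made in neuronal cell bodies, which for the sciatic nerve lie in the DRG and the ventral spinal cord, and are carried down the axon, whereas the RNA of the nerve itself comes mostly from Schwann cells, fibroblasts, vessels and immune cells.

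Promoter windows of 250 bases upstream of the start, from RefSeq on GRCm38.p6, were found for 7 of the 9 genes (8 windows, because Syt1 has a pair of starts). Windows of Vamp2 and Snap25 were not used here. The GC content of the 8 windows had a median of 63.4%, against 52.4% over all 32851 windows. The 4 motifs searched on both strands were TGACGTCA (the cyclic AMP response element, CRE), TTCAGCACC and GGACAG (the left and right arms of RE1, an element bound by the repressor REST, which keeps neuronal genes silent in other cells) and GGGCGG (the GC box), none of which contains another. The CRE letters stood in the windows of Sh3gl2, 37 bases before the start, and Syn1, 159 bases before it, and in 1.55% of all windows. The letters of the left arm of RE1 stood in the Syn1 window, 232 bases before the start, and in 0.301% of all windows. Those of the right arm stood in 1 Syt1 window (18.7% of all windows), and the GC box in 6 of the 8 (32.7%). The windows of Sh3gl2 and Syn1 are printed as those that hold a CRE. The windows of Cplx1 and Sv2a hold none. A link between these letters and the signals was not tested. Capitals mark the CRE and, in Syn1, also the left arm of RE1.
Sh3gl2 (chr4:85205206-85205455, plus strand): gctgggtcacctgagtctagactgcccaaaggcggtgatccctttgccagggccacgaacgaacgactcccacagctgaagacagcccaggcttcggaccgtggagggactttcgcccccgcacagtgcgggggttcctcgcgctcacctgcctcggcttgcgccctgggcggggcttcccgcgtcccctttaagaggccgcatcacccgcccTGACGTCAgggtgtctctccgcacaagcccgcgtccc
Syn1 (chrX:20920919-20921168, minus strand): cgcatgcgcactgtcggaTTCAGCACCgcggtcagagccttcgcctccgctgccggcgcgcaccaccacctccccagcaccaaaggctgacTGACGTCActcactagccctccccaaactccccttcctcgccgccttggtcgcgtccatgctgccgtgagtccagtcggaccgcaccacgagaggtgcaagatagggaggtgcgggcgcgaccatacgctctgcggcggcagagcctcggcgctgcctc

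Signals are bead intensities, in arbitrary units, scaled so that the median probe was equal on the 6 arrays. A probe was detected where its p-value against the negative controls of its array was under 0.05, and the lowest detected signal of an array, its floor, was 117 to 124. To be called higher or lower, a gene had to be detected on the brighter of both arrays and to differ by 2-fold or more, with undetected signals raised to the floor. Where the dimmer array failed to detect it, the fold is a lower bound. Intervals are 95% intervals from the standard errors over the beads of a probe, so they hold technical error within an array and not the spread between animals. With 1 array per condition no difference had a replicate check and no p-value between conditions was computed. From 50.9 to 54.5% of probes were detected per array. The arrays carried the markers of their labelled tissues. In the sham DRG, all 19 sensory neuron markers measured were at least 2-fold higher than in the sham nerve (12.0% of all genes). Of 8 Schwann cell and myelin markers, 5 were lower in the sham DRG than in the sham nerve (11.0% of all genes). In the cord, 20 of 22 detected spinal cord markers were higher than in the day 5 DRG (6.08% of all genes).

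The synaptic genes were bright in both nervous tissues that hold neuronal cell bodies and dim in the nerve. In the sham DRG, 8 of the 9 were at least 2-fold higher than in the sham nerve, where 12.0% of all genes tested were higher and 11.0% lower, and the median log2 difference of the 8 was 3.39, against -0.05 over all genes tested. In the day 5 cord, the same 8 were higher than in the sham nerve (12.0% of all genes higher, 12.6% lower), with a median of 4.30. In bulk tissue, fewer cells of a type and less RNA per cell cannot be told apart.

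Among the proteins of the vesicle membrane and its coat, Syp, which encodes synaptophysin, the abundant protein of the vesicle membrane, had a signal of 14503 in the day 5 cord, 11297 in the day 5 DRG, 11294 in the sham DRG, 949.8 in the sham nerve, 1365 in the day 1 nerve and 400.4 in the day 5 nerve. Syn1, which encodes synapsin I, the phosphoprotein that tethers vesicles to one another and to actin, had 8082 in the day 5 cord, 10439.6 in the day 5 DRG, 9341 in the sham DRG, 319.5 in the sham nerve, 738 in the day 1 nerve and 265 in the day 5 nerve. Both were thus brightest in cord and DRG, and within the nerve both were highest at day 1 and lowest at day 5. Sv2a encodes a vesicle glycoprotein that is the binding site of the antiepileptic drug levetiracetam. It had a signal of 5210.45 in the day 5 cord, 466 in the day 5 DRG, 825 in the sham DRG, 103 in the sham nerve, where it was not detected, 314 in the day 1 nerve and 129.96 in the day 5 nerve. Its lowest array was the sham nerve, whereas for Syp and Syn1 it was the day 5 nerve.

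Among the fusion proteins, Vamp2, the SNARE of the vesicle, had a signal of 3510.1 in the day 5 cord, 3768 in the day 5 DRG, 4605 in the sham DRG, 1267 in the sham nerve, 1036 in the day 1 nerve and 625 in the day 5 nerve. Stx1a, the syntaxin of the target membrane, had 994 in the day 5 cord, 1521 in the day 5 DRG, 1526 in the sham DRG, 415 in the sham nerve, 309.6 in the day 1 nerve and 433 in the day 5 nerve. These had the narrowest spans of the 8 detected genes between their highest and lowest arrays, 7.37-fold for Vamp2 and 4.93-fold for Stx1a, and neither was highest at day 1 within the nerve. The probe of Snap25, the other SNARE of the target membrane, was not detected on any of the 6 arrays, with signals of 91.3 to 105, so it gave no level and no difference, also not in the DRG and cord.

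Of the regulators of fusion, Syt1, which encodes the fast calcium sensor synaptotagmin-1, had a signal of 1161 in the day 5 cord, 1089 in the day 5 DRG, 1139 in the sham DRG, 96.4 in the sham nerve, 148 in the day 1 nerve and 92.1 in the day 5 nerve, and of the nerve arrays only that of day 1 detected it. Cplx1, which encodes complexin-1, a small protein that clamps the assembled SNAREs until calcium arrives, had 26915 in the day 5 cord, 22928.5 in the day 5 DRG, 25773 in the sham DRG, 395 in the sham nerve, 2117 in the day 1 nerve and 176 in the day 5 nerve. Its span, 153-fold between the highest and the lowest array, was the widest of the 8 detected genes. Sh3gl2 encodes endophilin-A1, which bends the membrane as a spent vesicle is taken back. It had a signal of 14296 in the day 5 cord, 4339.5 in the day 5 DRG, 7097 in the sham DRG, 249.6 in the sham nerve, 1113 in the day 1 nerve and 133 in the day 5 nerve, a span of 107-fold.

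**Figure D1:**
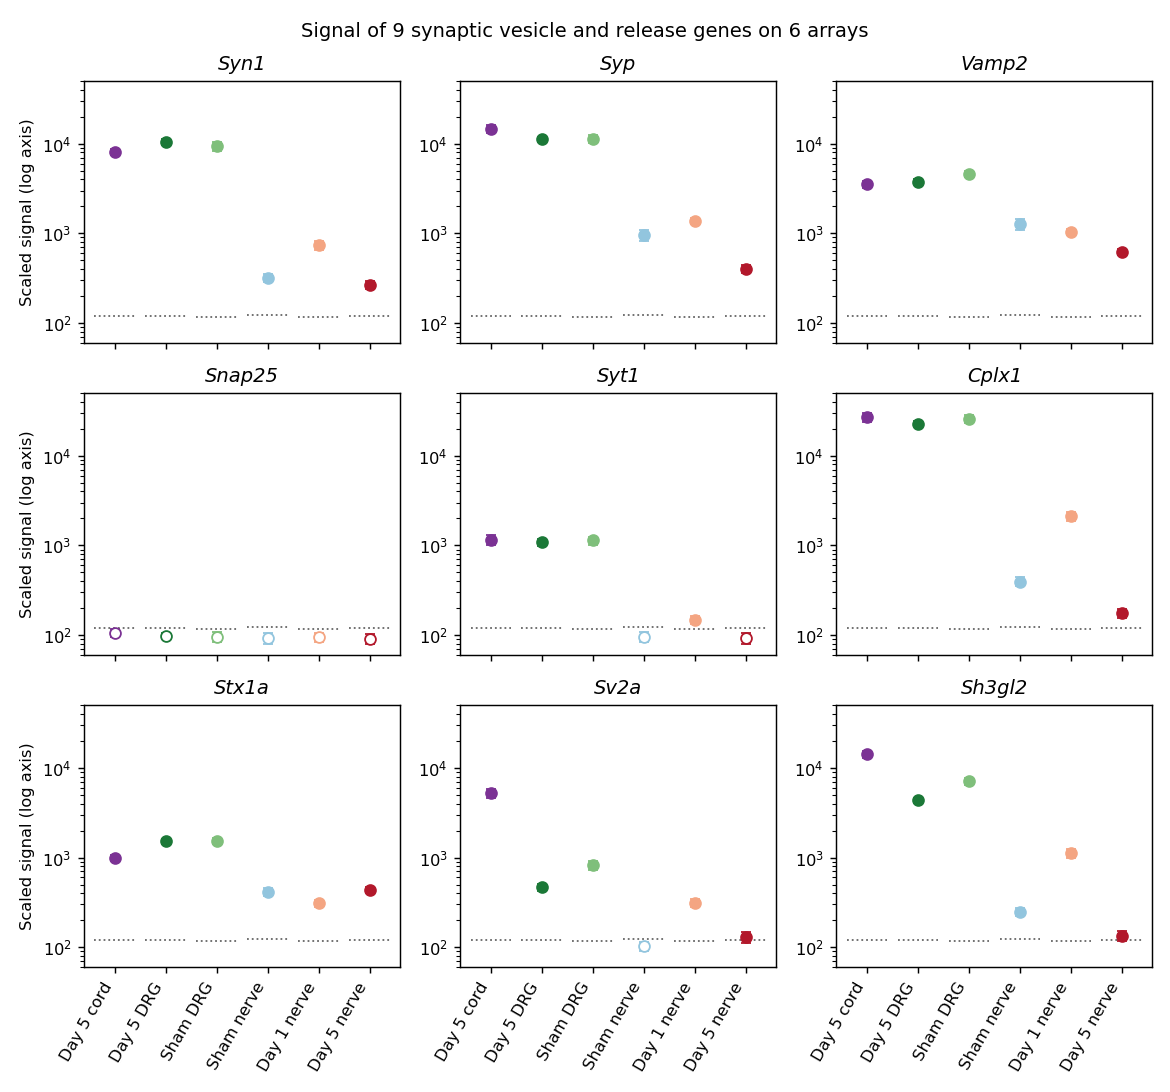
Scaled signal (log axis, arbitrary units) of the 9 genes on the 6 arrays, 1 array per condition, with 95% bead intervals; filled points were detected, open points were not, and dotted lines mark the floor of each array. The cord and DRG points of 8 genes lie above their nerve points, and Snap25 lies below the floor on all 6 arrays.

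Some neighbours in these orders did not differ beyond their bead error. The day 5 and the sham DRG could not be separated for Syn1, Syp, Syt1, Cplx1 and Stx1a, nor the cord and the nearer DRG array for Vamp2, Syt1 and Cplx1. The day 5 and the sham nerve could not be separated for Stx1a, or for Syt1, which neither detected. The other neighbouring levels of the 8 genes differed by more than the bead error of both arrays. For Sv2a at day 5 and Syt1 at day 1 this used a sham nerve signal below detection. With that signal raised to the floor, Sv2a differed by 1.05-fold between the day 5 and the sham nerve (0.881 to 1.25), so these were not separated. Across the 6 arrays, the log2 signal of each gene followed the mean of the others with a Pearson correlation of 0.993 for Syp, 0.859 for Stx1a and 0.825 for Sv2a, and of 0.952 to 0.983 for the other 5. These are descriptions over 6 points, which share the contrast between nerve and the 2 other tissues.

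The comparison of the day 1 nerve with the sham nerve asked how these genes stood in the nerve on the first day after transection. The genes that differed by 2-fold or more were all higher in the day 1 nerve. Cplx1 was 5.36-fold higher (4.55 to 6.32, log2 2.42), Sh3gl2 4.46-fold (3.85 to 5.17, log2 2.16) and Syn1 2.31-fold (1.97 to 2.71, log2 1.21), and Sv2a was at least 2.54-fold higher, with the sham nerve below detection. These were 4 of the 9 genes higher and 0 lower, where 6.54% of all genes tested were higher and 3.59% lower. Over the 8 genes detected in the day 1 nerve the median log2 difference was 0.87, against -0.01 over all genes tested. Sv2a and Syt1 entered that count through the day 1 array alone.

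The other detected genes stayed under 2-fold. Syp was 1.44-fold higher in the day 1 nerve (1.23 to 1.68), and the lower bound of Syt1 was 1.19-fold. Vamp2 had a log2 difference of -0.29 and Stx1a of -0.42, both with bead intervals below 0. A second probe of Sv2a gave at least 2.79-fold. A second probe of Syn1 gave 1.96-fold, from signals of 361 in the day 1 nerve and 184 in the sham nerve, so Syn1 passed the 2-fold limit with its brighter probe only. Both dimmer probes of Sh3gl2 had signals of 117 and 118 in the day 1 nerve and 93.8 and 118 in the sham nerve, near or under the floor. Their log2 differences of -0.08 and -0.07 arose from raising undetected signals to the floor of each array, so they measured no change. With the mean of its probes Sh3gl2 stood at 0.67, under 2-fold. With neqc, a background correction by normexp followed by quantile normalization, Sv2a stood at 2.43 on the log2 scale.

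Markers of spinal cord neurons and glia were set beside these genes. Of 23 markers measured, 19 were detected in the day 1 nerve and 5 in the sham nerve. In the day 1 nerve 8 were higher, 0 lower and 11 not called, where 6.54% of all genes tested were higher and 3.59% lower. Markers that the sham nerve did not detect could not be called lower. The summed signal of the 22 markers detected on any array was 13591 in the day 1 nerve and 12756 in the sham nerve. Mag, a myelin gene that Schwann cells share, and Slc1a3, a glial glutamate transporter, held most of both sums (6796 and 1277 in the day 1 nerve, 8463 and 2019 in the sham nerve). Olig1, of oligodendrocytes, had 900.4 in the day 1 nerve and 106 in the sham nerve, Slc32a1, the vesicular transporter for inhibitory transmitters, 556 and 96.9, and Gad1, an enzyme of GABA synthesis, 386 and 102, none of them detected in the sham nerve. Gad2 was not detected on any array.

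To set the 2 sets of genes on 1 scale, the day 1 nerve minus the sham nerve was divided by the cord signal above its floor, for genes whose cord signal was at least 5 times the floor. It was 6.43% of the cord signal for Cplx1 (5.27 to 7.58), 6.09% for Sh3gl2 (5.07 to 7.12), 5.25% for Syn1, 4.92% for Syt1, 4.14% for Sv2a and 2.88% for Syp. It was -6.83% for Vamp2 and -12.0% for Stx1a, both brighter in the sham nerve. Over all 17 cord markers measured this way it ran from -17.4 to 6.65%, with a median of 4.09%, and 14 intervals lay above 0 and 2 below, those of Slc1a3 (-17.4%) and Mag (-9.78%). The 13 markers that the sham nerve did not detect, which had little room to be lower, ran from 2.51 to 6.65%.

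Sensory neurons gave other values on their own scale. For 12 sensory markers with little signal in the cord (0.0062 to 0.177 of that in the sham DRG), such as the sodium channels Scn10a and Scn11a, the day 1 nerve minus the sham nerve was -1.72 to 2.46% of the sham DRG signal, with a median of 0.016%, and 5 of the 12 were detected in the day 1 nerve. Scn11a had a signal of 119.6 in the day 1 nerve and 108 in the sham nerve, against 14673 in the sham DRG. Of 4 sensory markers with more signal in the cord (0.241 to 1.10 of that in the sham DRG), the difference on the same scale was 6.11% of the sham DRG signal for Slc17a6, the vesicular glutamate transporter, 3.32% for Adcyap1, 2.82% for Nefh and -1.35% for Ret. Of 15 general neuron markers detected, 6 were higher in the day 1 nerve (6.54% of all genes), and the sham nerve detected 9 of the 15. Among the 6 was Vsnl1 (1272 in the day 1 nerve, 140.2 in the sham nerve). The part of RNA from the cord in the day 1 values of the synaptic genes was not tested.

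**Figure D2:**
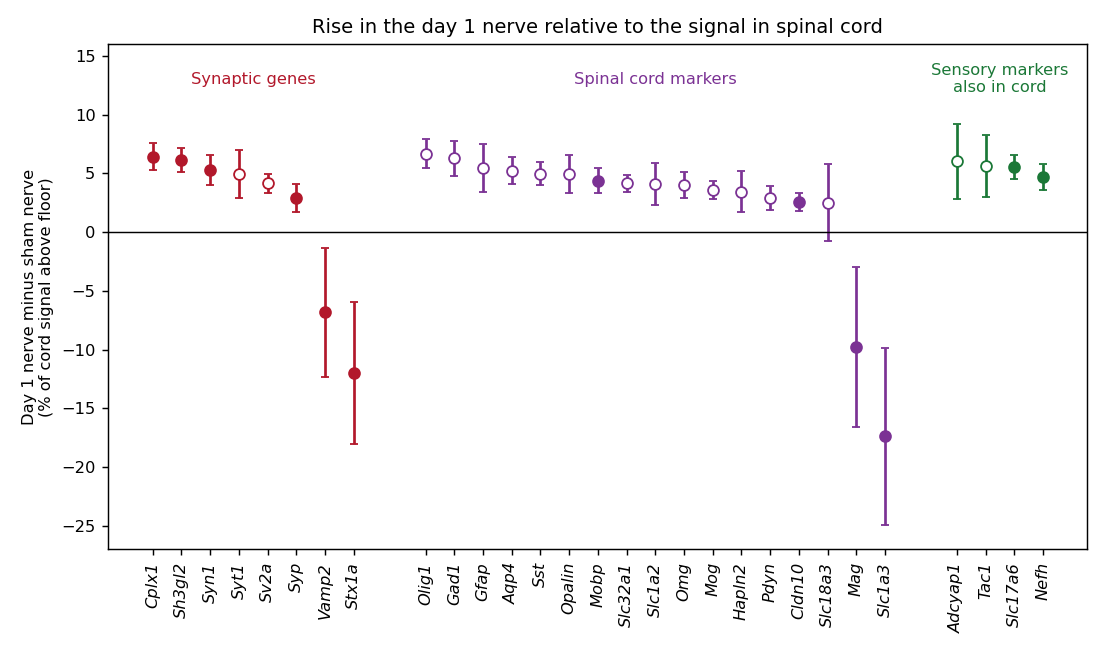
Day 1 nerve minus sham nerve as a percentage of the spinal cord signal above its floor, per gene, for 8 synaptic genes, 17 spinal cord markers and 4 sensory neuron markers with a cord signal at least 5 times the floor; bars are 95% bead intervals and open points were not detected in the sham nerve. The 4 sensory markers drawn are Tac1, Adcyap1, Slc17a6 and Nefh, so they include Tac1, 1 of the 12 with little cord signal in the text, and not Ret. The 8 synaptic genes run from -12.0 to 6.43%, with Vamp2 and Stx1a below 0, and the 17 cord markers from -17.4 to 6.65%, with Slc1a3 and Mag below 0.

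Signs of other tissue also differed between these arrays. All 10 skeletal muscle markers were detected in both, and their summed signal was 4855 in the day 1 nerve and 10247.5 in the sham nerve. At day 1, 6 of the 10 were lower (3.59% of all genes). The 8 Schwann cell and myelin markers summed to 117143 in the day 1 nerve and 125109 in the sham nerve. Their part in the values of the synaptic genes was not tested.

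By day 5 none of the 9 genes was higher by 2-fold or more than in sham nerve, and 3 were lower, where 6.30% of all genes tested were higher and 5.09% lower. These comparisons share the sham nerve array with those of day 1. Syp had a signal 2.37-fold lower in the day 5 nerve (2.01 to 2.81, log2 -1.25), Cplx1 2.25-fold lower (1.90 to 2.66, log2 -1.17) and Vamp2 2.03-fold lower (1.74 to 2.37, log2 -1.02). The intervals of Cplx1 and Vamp2 included differences under 2-fold. With no scaling Vamp2 stood at -0.94, under 2-fold, and with neqc Sh3gl2 at -1.74 was also lower and Cplx1 stood at -1.79. Sh3gl2, with a log2 difference of -0.91, and Syn1, with -0.27, were also dimmer at day 5 by more than their bead error but under 2-fold. Stx1a differed by 0.06, and Sv2a, near the floor in the day 5 nerve, had a lower bound of 1.05-fold. Over the 7 genes detected in either array the median log2 difference was -0.91, against -0.02 over all genes tested.

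Against the day 1 nerve, 5 of the 9 genes were at least 2-fold lower at day 5 and 0 higher (3.25% of all genes higher, 4.65% lower). Cplx1 was 12.1-fold lower (10.2 to 14.3), Sh3gl2 8.36-fold (7.09 to 9.86), Syp 3.41-fold, Syn1 2.79-fold and Sv2a 2.42-fold. Vamp2 was dimmer by 0.73 on the log2 scale and Stx1a brighter by 0.49, both under 2-fold. These sizes depended on background and probe: with neqc the log2 difference was -4.37 for Cplx1, -4.28 for Sh3gl2 and -2.23 for Sv2a, against -3.59, -3.06 and -1.27, and with the mean of its probes that of Sh3gl2 was -1.01. Of 23 cord markers, 19 were detected in the day 1 nerve and 4 in the day 5 nerve. Of the 19 detected in either array, 9 were lower at day 5 and 0 higher. Markers that the day 5 nerve did not detect entered through the day 1 array and could not be called higher. Olig1, 1 of the 9, still had 409 in the day 5 nerve, at least 3.30-fold above the sham nerve. The Schwann cell and myelin markers summed to 61755 in the day 5 nerve and 125109 in the sham nerve. Of the 8, 5 were lower (5.09% of all genes), among them the myelin genes Mal and Egr2. General neuron markers went both ways. Stmn2 was lower (299 in the day 5 nerve, 1102 in the sham nerve) and Thy1, which cells other than neurons also express, was higher (8267 and 1322). Their part in the lower synaptic signals was not tested.

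**Figure D3:**
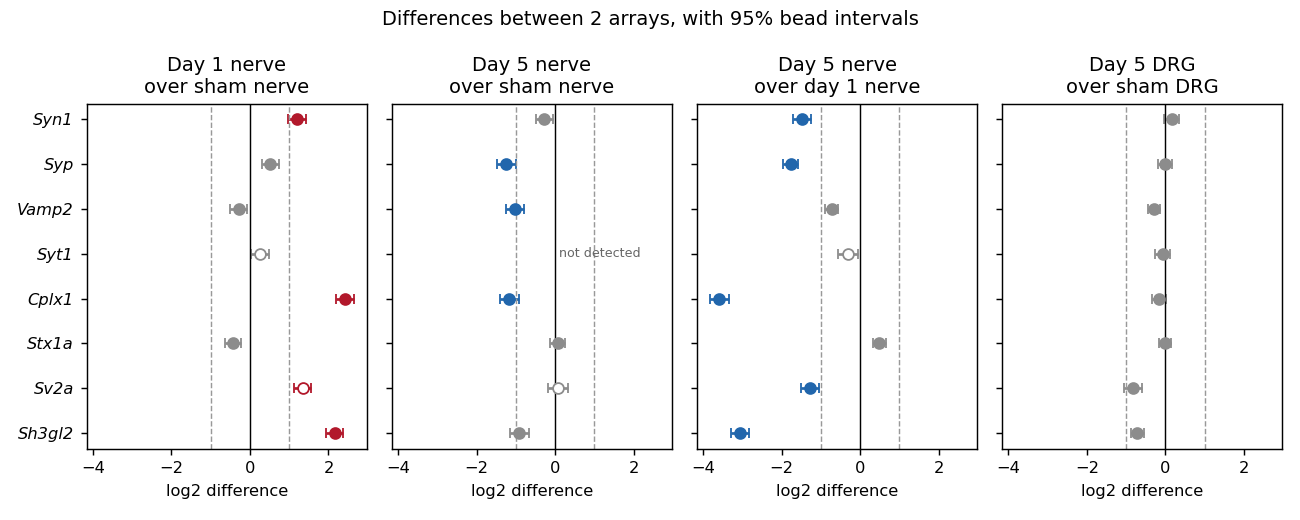
log2 difference of 8 genes between 2 arrays in 4 comparisons, with 95% bead intervals; dashed lines mark 2-fold, red points were at least 2-fold higher, blue points at least 2-fold lower, grey points under 2-fold, and open points are bounds. Cplx1 lies at 2.42 at day 1 and at -1.17 at day 5 against the same sham nerve array, and all 8 lie within 2-fold in the DRG.

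In the DRG, where the cell bodies of the cut sensory axons lie, none of the 9 genes differed at least 2-fold between the day 5 and the sham side (0.854% of all genes higher, 0.324% lower), and the median log2 difference of the 8 detected was -0.12, against -0.0011 over all genes tested. Syp was 1.00-fold (0.882 to 1.13) and Stx1a 0.997-fold (0.899 to 1.11). The largest differences were those of Sv2a, with 466 in the day 5 DRG and 825 in the sham DRG (log2 -0.82, interval 1.52- to 2.07-fold lower), and of Sh3gl2, with 4339.5 and 7097 (log2 -0.71). The second probe of Sv2a gave 429 in the day 5 DRG and 769 in the sham DRG, and both other probes of Sh3gl2 were also dimmer in the day 5 DRG (294 and 544, and 248 and 366). Vamp2 was lower by 0.29 on the log2 scale.

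Here too the cord markers differed. They were detected for 9 of 23 in the day 5 DRG and 17 of 23 in the sham DRG, with summed signals of 5342 and 12002. Of the 18 detected in either, 10 were at least 2-fold lower in the day 5 DRG and 0 higher. Over all genes tested 0.324% were lower and 0.854% higher. Markers that the day 5 DRG did not detect could not be called higher. Slc32a1 had 106 in the day 5 DRG, below detection, and 1025 in the sham DRG. As a percentage of the cord signal above its floor, the sham DRG minus the day 5 DRG was 2.38 to 15.2% for 17 cord markers, with a median of 5.69%. It was 2.38 to 9.57% for the 9 of these that the day 5 DRG did not detect, with a median of 5.08%. For the synaptic genes it varied more, and was 24.7% for Vamp2 (11.4 to 38.0), 19.4% for Sh3gl2 (14.1 to 24.8) and 7.06% for Sv2a (4.74 to 9.38), while the other 5 ran from -13.8% for Syn1 to 10.6% for Cplx1, with intervals that included 0. Of the 19 sensory neuron markers, 16 stayed within 2-fold, the neuropeptide gene Adcyap1 was higher (2842 in the day 5 DRG, 1322 in the sham DRG), and the serotonin receptor gene Htr3a (612 and 1566) and Mrgprd, a receptor of nociceptors (259 and 518), were lower. Of the general neuron markers, Gap43, a growth cone gene, was higher (6078 in the day 5 DRG, 2254 in the sham DRG). The part of cord RNA in the sham DRG values was not tested.

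The cord was set against the day 5 DRG to see which of the genes marked one tissue over the other. Sv2a was 11.2-fold higher in the cord (9.67 to 12.9) and Sh3gl2 3.29-fold (2.95 to 3.68), and 0 were lower, so that 2 of the 9 were called, where 6.08% of all genes were higher and 7.51% lower. A second probe of Sv2a gave 11.0-fold. The other 6 detected genes lay between a log2 difference of -0.61 for Stx1a and 0.36 for Syp. No uninjured cord was measured here, so its own response to the injury has no comparison.

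The rest of the release machinery was read from 5 lists with 57 genes measured. In the day 1 nerve 40 were detected in it or in the sham nerve, 6 were at least 2-fold higher and 0 lower (6.54% and 3.59% of all genes), and the median log2 difference was 0.17. Among vesicle membrane and coat proteins it was Syngr3, a synaptogyrin (344 in the day 1 nerve, 133 in the sham nerve, log2 1.37). Among SNARE proteins and their regulators it was Cadps, which primes dense-core vesicles (500.2 and 128, log2 1.96), Napb, an adaptor that brings NSF to spent SNAREs (576 and 199, log2 1.53), and Nsf, the ATPase that pulls them apart (1518 and 667, log2 1.19). Among endocytic genes it was Pacsin1, which binds dynamin (at least 4.44-fold, not detected in the sham nerve). Of the 9 detected active zone genes, which build the release site, 0 differed at least 2-fold, a share near that of all genes.

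Syt4, a synaptotagmin with weaker calcium binding than Syt1, was higher at both times, with 3536 in the day 1 nerve and 3079 in the day 5 nerve, against 765 in the sham nerve. It was the only gene of the 5 lists called at day 5 against the sham nerve, among 36 detected. Of all genes tested, 6.30% were higher there and 5.09% lower. The 5 other genes listed for day 1 had 123 (Syngr3), 95.7 (Cadps), 115 (Napb), 919 (Nsf) and 168 (Pacsin1) in the day 5 nerve. Between day 5 and day 1, 7 of 41 detected genes of the lists were lower and 0 higher (4.65% and 3.25% of all genes). Of the 7, Rab3a, Rims3 and Vamp1 were not called at day 1. In the DRG, Dnm1, the neuronal dynamin that cuts vesicles from the membrane, was lower (189 in the day 5 DRG, 391 in the sham DRG, log2 -1.05). It was 1 of 44 detected, and 0 were higher (0.324% of all genes lower, 0.854% higher).

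Of the family members that serve secretion outside synapses, 21 were measured. Of the 19 detected at day 1, 2 were higher in the day 1 nerve (6.54% of all genes), the same 2 of 21 were higher in the day 5 nerve (6.30% of all genes), and 0 were lower. Stx3 had 474 in the day 1 nerve and 403 in the day 5 nerve, against 194 in the sham nerve, and Stxbp2, a partner of syntaxins in blood and epithelial cells, had 953 and 1176, against 401. In the sham DRG, 2 of 18 detected were higher than in the sham nerve and 4 lower (12.0% and 11.0% of all genes), and of the other release genes 27 of 45 were higher and 1, Syngr1, was lower. This difference between the lists was not tested. Paralogs of the synaptic SNAREs stood on both sides: Vamp4 was higher, and Vamp3, Vamp5, Vamp8 and Snap23 were lower. Rab27a was the other gene called higher. Vamp3 had 1011 in the sham DRG and 3206 in the sham nerve, Vamp8 had 637 and 2424, and Snap23 had 367 and 1395. All 3 differed by less than 2-fold in either injured nerve, with log2 differences of -0.10, 0.02 and 0.63 at day 1 and of -0.28, 0.19 and 0.41 at day 5. Stx2 and Sh3gl1, paralogs of Stx1a and Sh3gl2, also stayed under 2-fold there.

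**Figure D4:**
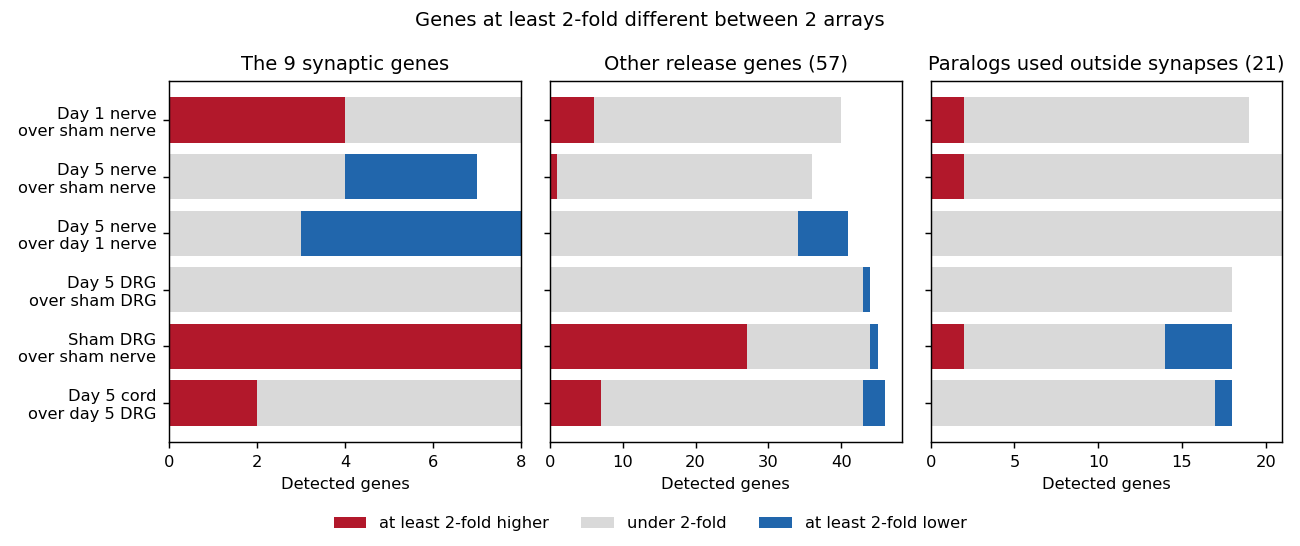
Number of detected genes (horizontal axis) at least 2-fold higher (red), under 2-fold (grey) and at least 2-fold lower (blue) in 6 comparisons, for the 9 synaptic genes, 57 other release genes and 21 paralogs used outside synapses. In the sham DRG over the sham nerve, 8 synaptic genes and 27 release genes are higher, against 2 paralogs.

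The genes whose pattern was most like the mean of the 8 detected genes over the 6 arrays, among 1912 detected on at least 3 arrays with at least a 4-fold span, were Ckmt1, Trim2, Prepl, Kcnc4, Eno2, Cntn1, Zcchc18, Rab3a, Rell2 and Aak1, with Pearson correlations of log2 signal of 0.996 to 0.999. Ckmt1, the mitochondrial creatine kinase, came first, with 11654 in the day 5 cord, 6269.9 in the day 5 DRG, 9474 in the sham DRG, 319.8 in the sham nerve, 727 in the day 1 nerve and 157 in the day 5 nerve. Its nerve values were highest at day 1 and lowest at day 5, as those of Syn1 and Cplx1 were. The 10 genes were picked by their likeness on these same arrays, so such a match follows from the choice. Eno2, neuron-specific enolase, had 653 in the sham nerve, 1322 in the day 1 nerve and 550.2 in the day 5 nerve. Rab3a, the small GTPase of synaptic vesicles, was the only 1 of the 10 in the release lists.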

How the data were processed

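The authors hybridised 1 pool of RNA per condition to an Illumina array and deposited non-normalized values per probe: an intensity (the mean of its beads, with neither background subtraction nor scaling), its standard error, a bead number, and the p-value of its detection over negative control beads. The submitters' processing notes name Agilent Feature Extraction 10.5. The series matrix intensities, which the authors processed, share their quantiles over the 6 arrays, while the methods state normalization to the median. Of 25697 probes, 23978 carried 1 symbol and 1719 were unnamed here. Signals were scaled to an equal median (factors 0.950 to 1.07), with no further background correction, and a gene was represented by its probe with the highest mean. The median bead number was 38 to 40 and the median standard error 5.89 to 6.53% of the signal.

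The 9 genes, the gene lists and the alternatives were chosen with earlier results of these data known. All 9 were named in every comparison. From the other lists the text names called genes with the largest folds or brightest signals and the paralogs of the 9. Python 3.11.15, pandas 2.3.3, R 4.3.3 and limma 3.58.1 (neqc) were used, and the calls were checked on simulated data. The simulation changed only bright genes, by more than 2-fold, so it did not check changes near 2-fold or near the floor. Alternatives were other scalings, neqc, a detection p under 0.01, no floor, other probes, and the processed table.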

Additional observations from a re-analysis of the deposited data

Results flagged for a closer look

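Cplx1 was at least 2-fold different from the same sham nerve array in opposite directions at day 1 and day 5, with signals of 2117 in the day 1 nerve and 176 in the day 5 nerve, against 395 in the sham nerve. Day 1 and day 5 lay 3.59 apart on the log2 scale. With 1 array per condition, the difference was not tested.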

How the results depend on the processing

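No paired analysis was possible because each condition had 1 array. For the same reason no array could be left out of a comparison. The processing was varied in 8 ways (no scaling, quantile normalization, the 75th percentile, neqc, a detection p under 0.01, no floor, the mean of all probes and the processed values of the authors), and in a further way chosen after seeing the data, the second brightest probe. No called difference of the 9 genes changed direction under any of these. The number of the 9 genes higher in the day 1 nerve over the sham nerve was 4 and fell to 2 with the second brightest probe, where Syn1 reached 0.97 on the log2 scale and Sh3gl2 was not detected in either nerve. With the mean of all probes it was 3, with Sh3gl2 at 0.67. At day 5 over the sham nerve, 3 genes were lower, 4 with neqc (Sh3gl2 at -1.74) and 2 with no scaling (Vamp2 at -0.94). Of the 30 called differences of the 9 genes over the 7 comparisons, 29 or 30 remained called under each of the 8. With the second brightest probe 27 of 28 remained called, but only Syn1, Sv2a and Sh3gl2 had another probe. The other genes kept their only probe there, so their calls could not change and that count says little about them. Of 55 differences in all, called or not, neqc moved 25 by more than their bead error, and each of the others moved 0 to 10. With no scaling the median of all genes in the day 1 nerve over the sham nerve lay at 0.12 on the log2 scale and the split of all genes called was 842 higher and 264 lower, against 669 and 367 with median scaling and 924 and 895 with neqc. With no scaling the split was also 1507 and 906 for the sham DRG over the sham nerve, against 1251 and 1141, and 517 and 994 for the cord over the day 5 DRG, against 632 and 780, with medians of 0.12 and -0.17. With neqc the counts were 977 and 975 for day 5 over sham nerve, against 638 and 515, 717 and 756 for day 5 over day 1, against 338 and 484, 212 and 119 in the DRG, against 87 and 33, 1133 and 1167 for the cord over the DRG, against 632 and 780, 1582 and 1994 for the sham DRG over the sham nerve, against 1251 and 1141, and 1740 and 1949 for the cord over the sham nerve, against 1255 and 1314. Background was not subtracted, so folds of dim genes lie nearer to 1. Signals near the floor of 117 to 124 limit Syt1 and Sv2a in nerve and Snap25 on all 6 arrays. In the day 5 nerve they also limit Sh3gl2 (133) and, less so, Cplx1 (176).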
